A study of Gossypium hirsutum with 3 samples.

Results

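By name or best match, the genes described here belong to different points of sterol and steroid hormone biology in fiber of cotton, Gossypium hirsutum. They are GhBM356397, a sterol-C-methyltransferase, TMIRS_154_A07.F, whose best match is the barley brassinosteroid-insensitive protein, and Contig7833, a sulfotransferase-like gene matched to Arabidopsis. They are 3 of 11143 gene models on a custom 2-colour array and were chosen by name with their ratio of 10 dpa to 1 dpa fiber (dpa, days post anthesis) and their signal already known, so those values are given as a description with no test. All 11 of their probes passed into the analysis, 3 for GhBM356397 and 4 each for TMIRS_154_A07.F and Contig7833. Each probe was spotted once on each array.

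Both groups were fiber of field grown plants (cultivars DES119 and ST4793R in the methods, which do not say which was hybridized), from flowers tagged at anthesis. The 10 dpa fiber, in the elongation stage, was dissected from the ovule. The 1 dpa fiber, called fiber initials, was shaken from frozen ovules of many pooled bolls with glass beads. RNA of both stages (polyribosomal in the methods, total in the sample labels) was labelled with Cy3 and Cy5 and hybridized together on 3 arrays, called replicates 1 to 3 without any order, with the dyes exchanged on replicate 2, and the ovule arrays of the series were not analysed here. The scanner files give replicates 1 and 3 the same code of 10 dpa RNA and replicates 1 and 2 the same code of 1 dpa RNA, while the methods describe biological replications from different harvest days. By the codes, the spread between arrays can be partly technical. The limma p-values rest on that spread, pooled in part over all genes. Replicate 1 stood apart: across all genes its log2 ratios correlated with r of 0.575 and 0.601 with those of replicates 2 and 3, which correlated with each other at r of 0.839.

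Plants make their sterols from squalene, and methyltransferases that add carbon to the sterol side chain decide which sterols form. Campesterol, one of these products, is the precursor of the brassinosteroids, plant steroid hormones that promote cell elongation. In Arabidopsis the hormone is bound at the cell surface by the leucine-rich repeat receptor kinase BRI1, which works together with kinases of the SERK family. Sulfotransferases transfer a sulfonate group to small molecules, and some enzymes of the family in Brassica napus and Arabidopsis act on brassinosteroids. In cultured cotton ovules, inhibitors of brassinosteroid synthesis reduce fiber growth.

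The 3 genes went 3 ways. Contig7833 was 5.93-fold lower in 10 dpa fiber than in 1 dpa fiber, TMIRS_154_A07.F was 2.07-fold higher, and GhBM356397 differed by less than the spread between arrays. By limma with a Benjamini-Hochberg adjusted p under 0.05, 1 of the 3 genes was called higher in 10 dpa fiber, where 8.03% of all 11143 genes were, and 1 was called lower, where 5.61% were. Nothing is read from these calls, since this contrast was known when the genes were chosen.

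Of the 3, the sterol-C-methyltransferase gene GhBM356397 stands first in the pathway. On its probe 4 the mean spot intensity in 10 dpa fiber was 688, 506 and 436 on replicates 1, 2 and 3, against 313, 520.6 and 469 in 1 dpa fiber. The stages overlapped on this probe, and the 1 dpa reading of replicate 1 was the lowest. Probe 3 gave 209, 163 and 133 in 10 dpa fiber, against 199, 141.4 and 142.4 in 1 dpa fiber. Probe 2 gave 129, 160 and 120 in 10 dpa fiber, against 146, 145 and 133 in 1 dpa fiber. Probes 2 and 3 thus read close together in both stages, and close to the negative control spots. Those spots had a 95th percentile of 133 in the 10 dpa channel and 187 in the 1 dpa channel of replicate 1, and of 71.2 to 94.5 in the channels of the other arrays. Of 9 readings of the gene in each stage, 8 lay above that percentile in 10 dpa fiber and 8 in 1 dpa fiber. Both that fell below were probe 2 on replicate 1.

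**Figure D1:**
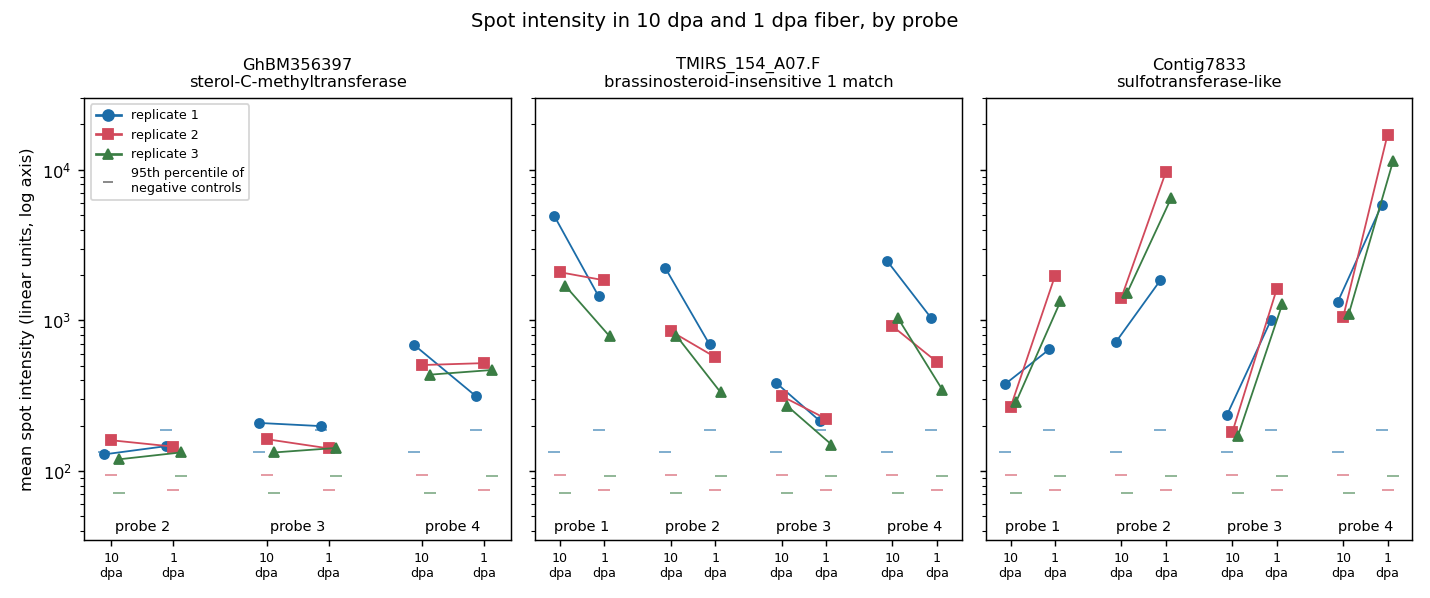
Mean spot intensity (linear units on a log axis) of each probe in 10 dpa fiber (left) and 1 dpa fiber (right), with a line for each array and a short dash for the negative control spots of that channel (95th percentile). Contig7833 was lower in 10 dpa fiber on all 4 probes of all 3 arrays, TMIRS_154_A07.F was higher on all of its 4, and probe 2 of GhBM356397 read 120 to 160 in 10 dpa fiber, near the negative controls.

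After background correction and loess normalization within arrays, the log2 ratio of 10 dpa to 1 dpa fiber for GhBM356397 was 0.92, 0.23 and -0.078 on replicates 1, 2 and 3. The mean was 0.36 ± 0.51 (SD, n = 3 arrays), and it was 0.078 without replicate 1. Probe means over the arrays were 0.34, 0.31 and 0.42 for probes 2, 3 and 4, with an SD between them of 0.056, and replicate 1 gave the highest ratio on each probe. Before normalization the probes were less alike. On replicate 1 the plain background-subtracted log2 ratios were -0.084, 0.21 and 1.30 for probes 2, 3 and 4, against 0.86, 0.68 and 1.22 after it. Without any normalization the mean of the gene was 0.15. In the normalized levels the spread between arrays lay mainly in 1 dpa fiber, which the spot readings of probes 2 and 3 did not show. With quantile normalization of the mean channel intensity between arrays added, the normalized log2 level in 10 dpa fiber was 7.70, 7.89 and 7.80 on replicates 1, 2 and 3 (7.79 ± 0.10, SD), against 6.77, 7.65 and 7.88 in 1 dpa fiber (7.43 ± 0.58, SD). The 2 readings of 1 dpa fiber that share an RNA code, on replicates 1 and 2, were therefore 6.77 and 7.65, though with different dyes. In the channel of 1 dpa fiber on replicate 1 the negative control spots were also brighter, with a median of 164, against 62.9 and 83.7 in that of replicates 2 and 3. The part of this background in the low reading was not tested. The SD of the ratio of GhBM356397 was larger than that of 90.1% of all genes.

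TMIRS_154_A07.F is described only by its best match, the barley brassinosteroid-insensitive protein. Its probe 1 read 4934, 2090 and 1693 in 10 dpa fiber on replicates 1, 2 and 3, against 1443, 1847 and 783 in 1 dpa fiber. Probe 2 read 2236, 849 and 793 in 10 dpa fiber, against 693, 571 and 333 in 1 dpa fiber. Both probes were brighter in 10 dpa fiber on each array. The stages overlapped across arrays on probe 1, where 1 dpa fiber of replicate 2 was brighter than 10 dpa fiber of replicate 3, and not on probe 2. Probe 3 read 386, 314 and 271 in 10 dpa fiber, against 214, 223 and 150 in 1 dpa fiber. Probe 4 read 2492, 916 and 1034 in 10 dpa fiber, against 1035, 530.9 and 347 in 1 dpa fiber. Across arrays the stages overlapped on probe 4 and not on probe 3. All 12 readings of this gene in each stage were brighter than the negative control percentile.

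The log2 ratio of TMIRS_154_A07.F was 1.19, 0.88 and 1.07 on replicates 1, 2 and 3. The mean was 1.05 ± 0.16 (SD, n = 3 arrays), and 0.97 without replicate 1. All 12 ratios of a probe on an array were positive. The probe means were 0.91, 1.15, 0.98 and 1.15 for probes 1 to 4, and the SD between probes within an array was 0.24, 0.23 and 0.26 on replicates 1, 2 and 3. Probe 4 ordered the arrays differently from the others, with its lowest ratio on replicate 1 (0.85, 1.17 and 1.41 on replicates 1, 2 and 3), where probes 1 to 3 had their highest. Its normalized log2 level in 10 dpa fiber was 9.98 ± 0.22, against 8.93 ± 0.15 in 1 dpa fiber (SD, n = 3 arrays each), and the stages did not overlap. Arrays differed least for this gene of the 3: 30.5% of all genes had a smaller SD of the ratio. By its ratio it stood in place 371 from the highest of 11143 genes, so that 96.7% of genes had a lower ratio.

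Contig7833, the sulfotransferase-like gene, had the widest difference of the 3. Its probe 4 read 1320.3, 1052 and 1099.9 in 10 dpa fiber on replicates 1, 2 and 3, against 5881, 17056 and 11409.6 in 1 dpa fiber. The stages were far apart on each array, and most of the difference between arrays lay in 1 dpa fiber. Probe 3 read 234, 181 and 171 in 10 dpa fiber, against 1009.7, 1609 and 1279 in 1 dpa fiber. Probe 2 read 719, 1418 and 1518 in 10 dpa fiber, against 1843, 9639 and 6524 in 1 dpa fiber. Probe 1 read 377, 265 and 288 in 10 dpa fiber, against 643, 1970.2 and 1338 in 1 dpa fiber. On no probe did the stages overlap. The 12 readings in 10 dpa fiber, as the 12 in 1 dpa fiber, were all brighter than that percentile, so the gene was measured in both stages.

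Contig7833 had log2 ratios of -1.97, -2.79 and -2.94 on replicates 1, 2 and 3, so 10 dpa fiber was 3.92, 6.92 and 7.69-fold lower. The mean was -2.57 ± 0.52 (SD, n = 3 arrays), and -2.87 without replicate 1. Its probes differed in size but not in sign. The probe means were -1.98, -2.16, -2.79 and -3.35 for probes 1 to 4, a range of 3.94-fold to 10.2-fold lower, and the SD between probe means of 0.63 was larger than that between arrays. Probe 4 had the most negative ratio on each array and probe 3 the next. Probe 1 varied most, with -0.94 on replicate 1, against -2.56 and -2.43 on replicates 2 and 3. Replicate 1 was the least negative array on all 4 probes. The normalized log2 level in 10 dpa fiber was 8.50, 9.24 and 9.32 on replicates 1, 2 and 3, against 10.47, 12.03 and 12.26 in 1 dpa fiber. The level was lowest on replicate 1 in both stages, also where the RNA code was shared (8.50 and 9.32 in 10 dpa fiber, 10.47 and 12.03 in 1 dpa fiber). That pair of 1 dpa readings also differed in dye. The SD of the ratio of Contig7833 was larger than that of 90.7% of all genes. By its ratio the gene stood in place 6 from the lowest of 11143 genes.

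**Figure D2:**
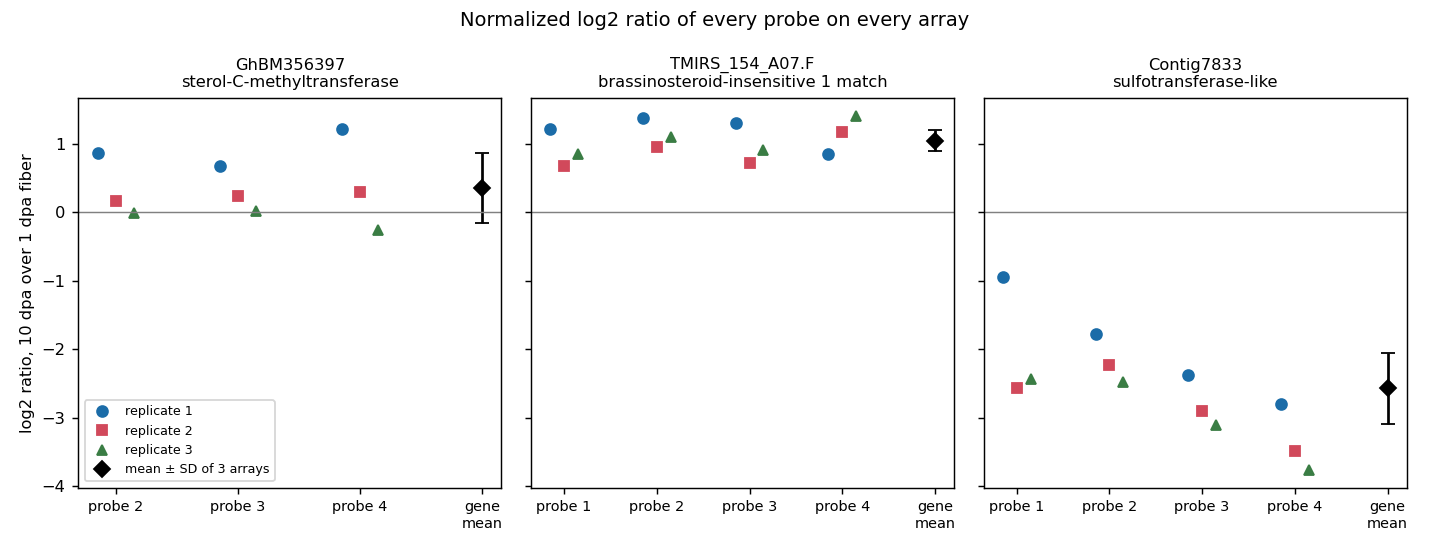
Normalized log2 ratio of 10 dpa over 1 dpa fiber for each probe on each array (points), and the mean ± SD of the 3 arrays for the gene (black diamond). All 12 points of TMIRS_154_A07.F lie above 0 and all 12 of Contig7833 below it, while replicate 1 lies above the other arrays on each probe of GhBM356397.

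Other genes of these pathways were found by their best protein match, as an additional file of the study lists it. By limma (adjusted p under 0.05), 10 dpa fiber was higher than 1 dpa fiber for 2 of 8 such genes of sterol or steroid metabolism, lower for 3, and without a call for the remaining 3. The median log2 ratio of these 8 genes was -0.32, beside -0.042 over all 11143 genes, of which 8.03% were called higher and 5.61% lower. The study listed these genes, unlike the whole array, for changes in its own samples, so their calls, median and directions are not independent evidence. Each of the 8 had a spot above the negative controls in both stages on all arrays.

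Of 4 genes of sterol synthesis, 1 rose, 2 fell and 1 did not pass. The C-4 sterol methyl oxidase (Contig10851), which takes part in removing methyl groups from the sterol ring, had log2 ratios of 1.27, 1.08 and 0.63 on replicates 1, 2 and 3, and rose 1.99-fold (adjusted p = 0.0123 from limma). The C-8,7 sterol isomerase (TSMB_1-02-01_A12_LibSeq2_09Dec03_048.ab1), which moves a double bond in the ring, had log2 ratios of -1.09, -1.04 and -1.43, and fell 2.28-fold (adjusted p = 0.00392 from limma). Contig17317 of the ERG4/ERG24 family, reductases of sterol double bonds, with its best match in a bacterium, had log2 ratios of -0.45, -0.66 and -0.80 and fell 1.56-fold (adjusted p = 0.0259 from limma). Its call ended without replicate 2 (log2 ratio -0.63), without replicate 3 (-0.56) and with median centring (-0.42). None of the 8 genes passed when the arrays were scaled to one spread, or by an unmoderated F-test for each gene on these 3 arrays, which is not the study's own test over all of its arrays. For the putative sterol desaturase TMIRS_178_A08.F the log2 ratio was 0.13 ± 0.42 (adjusted p = 0.764 from limma), and it turned to -0.029 without replicate 2. The isomerase and the methyl oxidase thus lay on opposite sides of 0 on every array.

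Neither of the steroid reductases passed the test. Contig16091, matched to DET2, an Arabidopsis enzyme of brassinosteroid synthesis, had a mean of -0.28 ± 0.12 (SD; adjusted p = 0.23 from limma). TMIRS_211_F04.F, of the same reductase family, had one of -0.36 ± 0.51 (adjusted p = 0.374 from limma), with -0.95 on replicate 3 and -0.032 and -0.11 on replicates 1 and 2. Both ratios were negative on all 3 arrays.

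The listed pair of genes that modify sterols or steroids went opposite ways. The UDP-glucose:sterol 3-O-glucosyltransferase TMIRS_216_B12.F, which attaches glucose to sterols, had log2 ratios of 1.05, 0.96 and 0.48, and rose 1.78-fold (adjusted p = 0.0189 from limma). Contig6899, an 11-beta-hydroxysteroid dehydrogenase-like gene, had log2 ratios of -0.99, -2.12 and -1.60, and fell 2.97-fold (adjusted p = 0.00767 from limma). Beside it, Contig7833 had the lower ratio on each array.

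**Figure D3:**
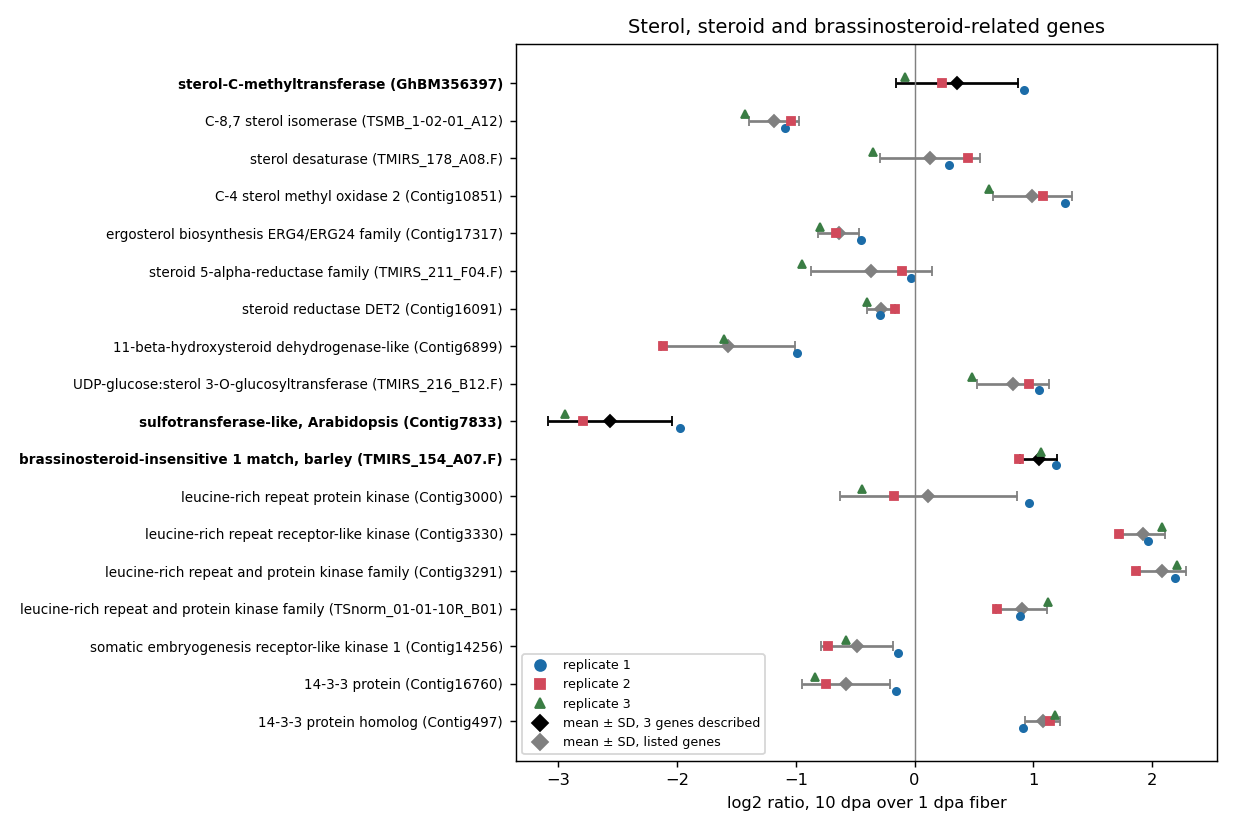
Log2 ratio of 10 dpa over 1 dpa fiber on each array (points) and its mean ± SD (diamonds) for the 3 genes described (bold) and the listed genes (grey), ordered as sterol synthesis, steroid reduction and modification, then receptor kinases and phosphoprotein-binding adaptors. Contig7833 has the lowest mean of the genes shown, and the mean ratios of the other sterol and steroid genes run from -1.57 to 0.99.

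The receptor match was set beside 5 other genes described as leucine-rich repeat or SERK kinases. By limma 3 of these rose, 0 fell and 2 had no call, with a median log2 ratio of 0.90. Over all 11143 genes 8.03% rose and 5.61% fell, with a median of -0.042. At an unadjusted p under 0.05, 3 were higher and 1 was lower, and both scaling and the unmoderated F-test gave 0 adjusted calls. Contig3291 had log2 ratios of 2.19, 1.86 and 2.21 and rose 4.26-fold (adjusted p = 0.000846 from limma). Contig3330, a weak match, rose 3.79-fold with ratios of 1.96, 1.72 and 2.09. TSnorm_01-01-10R_B01_InvR_25Feb04_013.ab1 rose 1.87-fold (log2 ratio 0.90 ± 0.21), a call that ended when channels were taken as single samples without the replicate block. Contig14256, matched to SERK1 of maize, of the family that holds the co-receptors of BRI1 in Arabidopsis, had a log2 ratio of -0.48 ± 0.31 (adjusted p = 0.104 from limma), and fell at an adjusted p of 0.0169 from limma without replicate 1. Contig3000 had 0.96, -0.17 and -0.44 on replicates 1, 2 and 3, a mean of 0.11 that turned to -0.31 without replicate 1 and to -0.098 with scaling between arrays. The ratio of 1.05 of TMIRS_154_A07.F lay inside the range of these kinases, which was -0.48 to 2.09. This list too was drawn from genes the study selected on these samples, so its directions are not independent evidence.

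In Arabidopsis, a family of small adaptor proteins binds the phosphorylated transcription factors of brassinosteroid signalling, among many other proteins. Of 2 genes matched to such adaptors, Contig497 rose 2.11-fold, with log2 ratios of 0.91, 1.14 and 1.18 (adjusted p = 0.00422 from limma). The Contig497 call ended with scaling between arrays (adjusted p = 0.0683 from limma) and by the unmoderated F-test (adjusted p = 0.195). Contig16760 had a log2 ratio of -0.58 ± 0.37 (adjusted p = 0.0803 from limma), and it was -0.79 and past the test without replicate 1. Over all genes 8.03% were called higher and 5.61% lower. Like the other lists, this pair comes from genes the study selected on these samples, so its directions are not independent evidence.

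The genes whose ratios on the 3 arrays lay nearest to each of the 3 were found among 1036 described genes, by Euclidean distance in log2 units. For Contig7833 they were Contig13, a homeobox gene (distance 0.55; ratios -1.75, -2.96 and -2.47), TMIRS_134_A07.F, matched to a rice protein of no stated function (distance 0.59), and Contig3452, a protease inhibitor-like gene (distance 0.75). For TMIRS_154_A07.F they were TMIRS_114_H11.F (distance 0.10), Contig16167, matched to a CfxY protein (distance 0.11), and TMIRS_023_E04.F (distance 0.11). For GhBM356397 they were Contig882, a proteolipid subunit of the vacuolar proton ATPase (distance 0.16), Contig1043 (distance 0.16) and Contig16680, an endomembrane protein (distance 0.21). The nearest gene to Contig7833 was thus farther from it than the third nearest was from either of the other genes. Few genes can lie near a ratio in place 6 from the lowest, so the distance adds nothing to that ratio. With 3 arrays these distances are a description of shared ratios only.

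As a check of the tissue, 5 genes known from earlier work as active in young fiber (GhFDH, GhACY, GhAJ549758, GhAF034130 and GhRDL) each had a spot above the negative controls in both stages on all arrays. By limma, GhRDL rose (log2 ratio 0.82 ± 0.24, SD), GhFDH fell (-0.85 ± 0.40), and the other genes had no call. The GhRDL call ended without replicate 2 (adjusted p = 0.0564 from limma) and with unpaired channels (0.351), and the GhFDH call without replicate 3 (0.0523), with median centring (0.446) and without normalization (0.338). Neither passed with scaling or the unmoderated F-test. Another 8 genes were described as histones, a replication protein or a cyclin-like protein, which are active in cells that copy their DNA. Of these 8, 3 fell, 1 rose and 4 did not pass (median log2 ratio -0.52). Over all 11143 genes 5.61% fell and 8.03% rose, with a median of -0.042. Unlike the whole array, described genes were listed by the study for changes in its own samples. The calls and median of these 8 are therefore not independent evidence. The gene that rose, the cyclin-like TMIRS_190_H08.F, was a weak match. Genes of this list can be active in ovule cells other than fiber and in fiber itself, and these arrays cannot tell the cells apart. Their summed background-subtracted intensity, not normalized between the dyes, was 48099, 10128 and 14079 in 10 dpa fiber on replicates 1, 2 and 3. In 1 dpa fiber the sums were 48707, 33279 and 25790. The sum was thus lower in 10 dpa fiber on replicates 2 and 3. On replicate 1 the sums were close. The median log2 ratio of red over green there was -0.21 with 10 dpa fiber in red, so no direction is read from that array. The count of 3 that fell was 5 without replicate 1, 2 with median centring and 2 without normalization, 1 with unpaired channels, and 0 with scaling and with the unmoderated F-test. Of 2 genes matched to a seed protein and, weakly, a photosystem protein, 1 rose and 0 fell (1 lower at an unadjusted p under 0.05). Their ratios went opposite ways on each array. The weak photosystem match Contig1440 had log2 ratios of 1.73, 2.17 and 2.79 on replicates 1, 2 and 3. The seed protein match Contig17541 had -0.23, -0.52 and -0.26 (adjusted p = 0.169 from limma). Their summed intensity in 10 dpa fiber was 15056, 3890 and 4816 on replicates 1, 2 and 3. In 1 dpa fiber it was lower on each array (4584, 1822 and 937), but a sum does not tell the 2 genes apart. Contig7833 was lower in 10 dpa fiber, as were the histones that fell. Their part in its ratio was not tested, and on arrays of bulk RNA fewer cells of a type and less RNA in each cell cannot be told apart.

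The log2 ratios of the 3 genes kept their sign under every alternative of background correction, normalization and probe summary that was run, and under the omission of any array or any single probe. Some alternatives could not change them, as unpaired channels leave the ratio as it is and the omission of dim probes removed none of their probes. The values ranged from -2.91 to -2.31 for Contig7833, from 0.97 to 1.13 for TMIRS_154_A07.F and from 0.078 to 0.58 for GhBM356397. For the first pair of genes the range was narrow beside the ratio itself, and for GhBM356397 the range was wider than the ratio.

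**Figure D4:**
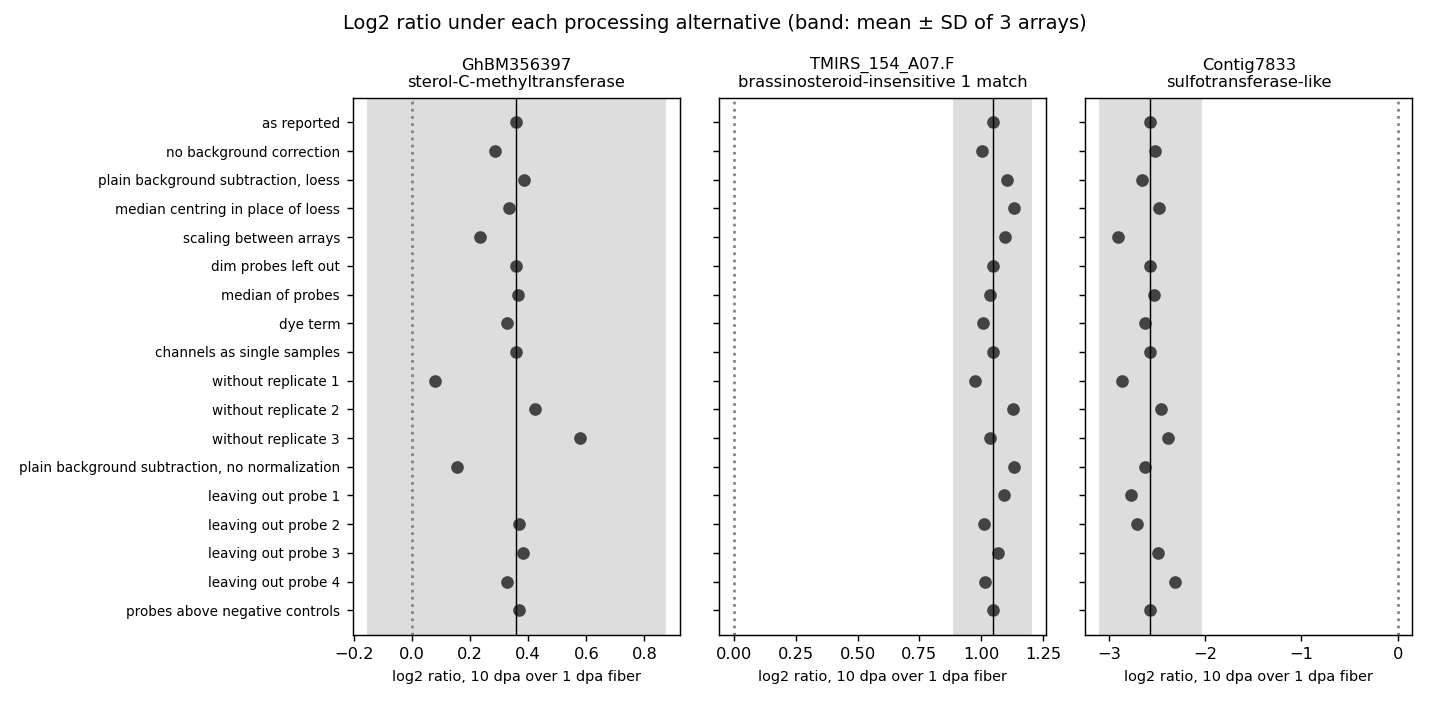
Log2 ratio of 10 dpa over 1 dpa fiber for each gene under each processing alternative (points); the solid line and grey band are the reported mean ± SD of 3 arrays and the dotted line is 0. Points of each gene lie on 1 side of 0, and the point of GhBM356397 without replicate 1, at 0.078, lies nearest to it.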

How the data were processed

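For every spot the deposited scanner files hold mean intensities and mean local backgrounds, green and red, on a linear scale and not corrected by the authors. The deposited value table holds log2 ratios of red over green. Its sorted columns equalled plain background subtraction over the gene spots to within 5e-10, uncentred (medians -0.21, 0.17 and -0.028) and with the dye swap not turned. Since none of its identifiers is a probe name, it gave no value for a gene. Columns of the authors' own comparisons in the additional file were not used.

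Intensities were corrected by normexp (offset 50), normalized by loess within each array with 2256 control spots at weight 0, and turned to 10 dpa over 1 dpa. The 42034 gene spots were averaged to 40372 probes and then to 11143 genes. Prefixes RC_ and a1_ of probe names, whose meaning is not given in the sources used here, were removed. All genes were fitted with limma (lmFit, eBayes) and p-values adjusted by Benjamini-Hochberg. The software was R 4.3.3 with limma 3.58.1 and jsonlite 2.0.0, and the fit was run on simulated data. The simulation gave all genes a common spread and independent arrays, unlike these data, so it cannot show how the calls hold here. Precision is limited by the 3 arrays. A reading counted as above background where it passed the 95th percentile of 314 negative control spots.

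The genes, the lists and the rule for naming genes (the 3 genes, the listed genes and the 3 nearest described genes of each) were chosen with earlier results of these data known. Both stages share an array, so the ratio within it pairs them: across genes, deviations of its channels from their stage means correlated with r of 0.37 to 0.53. Alternatives were other background corrections, median centring, scaling, the median in place of the mean of probes, a dye term, the omission of dim probes, unpaired channels, an unmoderated F-test for each gene on these 3 arrays (the study's own F-test came from 1 ANOVA over all its arrays with a common variance and was not run), and the omission of each array or probe.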

Additional observations from a re-analysis of the deposited data

How the results depend on the processing

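The log2 ratios of GhBM356397, TMIRS_154_A07.F and Contig7833 kept their sign in all alternatives run, 16 for GhBM356397 and 17 for each of the others. Without each replicate in turn they were 0.078 to 0.58, 0.97 to 1.13 and -2.87 to -2.38, and GhBM356397, at 0.36 over all arrays, was lowest without replicate 1. The calls over all genes depended more on the processing. Beside 895 genes higher and 625 lower in 10 dpa fiber, there were 512 and 191 with median centring, and 568 and 323 with plain subtraction and no normalization. Without the array as a replicate block the counts were 547 and 402, and the sterol and steroid list still had 2 higher and 3 lower genes. The ratios themselves (0.36, 1.05 and -2.57 for the 3 genes) cannot change when the block is removed, so they say nothing about stability here. The same holds for the omission of dim probes, which removed no probe of the 3 genes. It also holds for the setting with probes above the negative controls only, which kept all 4 probes of TMIRS_154_A07.F and of Contig7833. Scaling between arrays gave 0 and 0 by limma (1531 and 1168 at an unadjusted p under 0.05), and an unmoderated F-test for each gene gave 0 and 0 (1008 and 803 unadjusted). Under both, the sterol and steroid list had 0 and 0. That F-test is not the study's, which used all of its arrays. Leaving out a replicate gave 803 to 979 higher and 447 to 1212 lower genes, the last without replicate 1. The cause was not tested.

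Some ratios near 0 turned in sign. Contig3000 was -0.098 with scaling, and -0.31 to 0.39 when a replicate was left out. GhACY was 0.069 with median centring, 0.036 with plain subtraction and no normalization, and -0.69 to 0.46 when a replicate was left out. GhAJ549758 was 0.044 with median centring and -0.21 to 0.083 when a replicate was left out. TMIRS_178_A08.F was -0.029 to 0.37 when a replicate was left out, and Contig8124, a replication protein match, was -0.096 with plain subtraction and no normalization. The setting without any normalization, and that with probes above the negative controls only, were chosen with the data in view. The split by probe prefix could not be run, since each of the 3 genes has probes of 1 kind.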
